A study of Mus musculus with 10 samples.

Results

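The high-count windows of the autosomes were the 10 kb windows of chromosomes 1 to 19 that drew more reads than a window of ordinary sequence. They were chosen from the deposited values themselves, as the windows whose mean over the 10 libraries was above 1.5 times the median autosomal window. This gave 507 of 246285 autosomal windows (0.206%), out of 272566 windows in all. The level of a window is given below as a multiple of the median autosomal window, of the mean over libraries or of a single library. Because levels chose the windows, their height over the rest is a description and was not tested.

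The DNA came from embryonic stem cells (mESCs) of male C57/Bl6 mice, held in 2i/LIF, a medium that keeps mESCs in a naive pluripotent state. There were 5 groups of 2 libraries, each from 2 independently derived lines, namely p0 at the start, and p10 and p20 (10 and 20 passages) in either Mulas2019 or Keniry2022 conditions. Mulas2019 is the reference way of growing these cells and Keniry2022 the modified one, with daily passaging at higher density in suspension, and every group was kept in the same medium. Cells were split daily in Keniry2022 and less often in Mulas2019, so groups of the same passage differ in days of culture, and a difference between protocols at a given passage cannot be told apart from a difference in time. Replicate 1 and replicate 2 are the lines, each of which was split into both conditions after p0. Libraries held 27270648 to 35354358 reads, and the median autosomal window 114 to 148 reads, which is a counting error of 8.22% to 9.37%. Y chromosome windows set the lines apart, with 125 to 442 reads in the replicate 1 libraries and 10784 to 21001 in the replicate 2 libraries at p0, p10 Mulas2019, p20 Mulas2019 and p10 Keniry2022. The p20 Keniry2022 libraries had the reverse order, with 14408 reads in replicate 1 and 222 in replicate 2, so their replicate numbers are in doubt. Counts that rest on the pairing by line are therefore also given with these numbers crossed, in fits chosen after seeing the data where the line is a fixed block.

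Reads of repeated DNA can be placed only where the assembly holds a copy. Pericentromeric satellite and ribosomal DNA exist in long tandem arrays that are largely missing from the mouse assembly, so the few assembled copies collect reads from the whole array. A segment that is duplicated in the cells but present once in the assembly does the same on a smaller scale. Read depth also follows the base composition of a window, because amplification and sequencing recover GC-rich and AT-rich fragments unequally.

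The sequence behind the highest window is shown here because the 8 windows that hold it took 32.4% to 50.5% of the reads of all 507 windows in each library. The first line is a 234-base unit of a tandem array at chr9:3027538-3027771 (GRCm38, plus strand), which has the unit length of the mouse major satellite, the main DNA of mouse pericentromeres. The other lines are the copies found in the highest window of the genome (chr2:98667053-98667286, minus strand, 94.4% identity) and in a window of chromosome 14 (chr14:19419151-19419383, minus strand, 92.7% identity). Capitals mark bases that differ from the unit in the first line.
Unit on chromosome 9: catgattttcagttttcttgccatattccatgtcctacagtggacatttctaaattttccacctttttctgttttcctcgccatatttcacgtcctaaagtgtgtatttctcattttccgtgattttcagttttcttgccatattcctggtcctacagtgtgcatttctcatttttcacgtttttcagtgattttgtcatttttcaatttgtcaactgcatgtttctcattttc
Copy on chromosome 2: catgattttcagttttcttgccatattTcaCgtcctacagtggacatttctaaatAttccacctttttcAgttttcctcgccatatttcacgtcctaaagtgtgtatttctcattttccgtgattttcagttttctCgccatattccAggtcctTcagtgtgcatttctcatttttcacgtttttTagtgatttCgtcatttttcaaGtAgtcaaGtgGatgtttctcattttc
Copy on chromosome 14: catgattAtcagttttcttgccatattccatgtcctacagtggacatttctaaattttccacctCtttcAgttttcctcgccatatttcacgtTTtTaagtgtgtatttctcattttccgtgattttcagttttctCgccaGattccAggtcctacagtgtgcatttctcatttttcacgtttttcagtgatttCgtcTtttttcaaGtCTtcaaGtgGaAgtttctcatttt

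At least 20 matches of 20 bases to this array, on either strand, were found in 8 of the 507 windows (1.58%), beside 19 of all 246285 autosomal windows (0.00771%). These 8 satellite windows lay on chromosomes 2, 4, 9, 11 and 14. Another tandem array, with a unit of 21 bases, filled part of the window at chr4:3080001-3090000, which stood at 3.64 times the median. Its units are shown with every other unit in capitals (chr4:3082109-3082192, plus strand).
Repeat on chromosome 4: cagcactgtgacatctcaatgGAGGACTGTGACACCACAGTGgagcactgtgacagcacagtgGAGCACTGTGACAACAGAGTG

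The second highest window held a copy of the 18S ribosomal RNA gene, whose many copies code for the RNA of the small ribosomal subunit. The start of that copy, Rn18s-rs5, is at chr17:39846354-39846473 (plus strand).
Start of Rn18s-rs5: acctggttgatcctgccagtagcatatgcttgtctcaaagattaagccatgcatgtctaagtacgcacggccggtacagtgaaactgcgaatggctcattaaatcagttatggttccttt

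Most of the 507 windows were not of this kind. Their median level was 1.53, and 457 of them stood between 1.5 and 2 times the median, 31 between 2 and 5, and 19 above 5. The 2 windows just inside the limit were chr9:30900001-30910000 at 1.5002 and chr16:17590001-17600000 at 1.5003, and the 2 just outside were chr3:90550001-90560000 and chr9:56700001-56710000, both at 1.4999. The 457 lowest windows had a median GC content of 48.2%, and in the median window only 4% of the sampled 31-base words occurred elsewhere in the assembly, beside 41.4% and 7.50% for the 239597 autosomal windows that are mostly sequenced. The windows from 2 to 5 had a median GC content of 40.8% with 28.0% repeated words, and those above 5 had 45.4% and 9%. At least 20% repeated words were found in 44 of the 457 lowest windows (9.63%), 22 of the 31 middle ones (71.0%) and 5 of the 19 highest (26.3%). Among the mostly sequenced autosomal windows the share was 23.1%. The name repeat window thus fitted the satellite, ribosomal and middle windows, while the lower part was mostly GC-rich DNA with few repeated words.

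The windows formed 429 runs of adjacent windows, of which 380 were single windows, 34 were pairs and 15 had at least 3 windows. An assembly gap in the window or its neighbour was found for 17 windows (3.35%). The share was 0.269% among the 239597 mostly sequenced autosomal windows, a set that leaves out windows that are mostly gap. The first 2 Mb of assembled sequence of a chromosome, next to the centromere, held 28 windows (5.52%, beside 1.58% of the same autosomal windows). The last 2 Mb held 21 (4.14%, beside 1.49%). A tandem repeat was found in 18 windows (3.55%), which is not above the 5.02% among every 100th autosomal window.

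Chromosome 3 held 86 of the windows (16.96%) with 6.498% of the autosomal windows, followed by chromosome 4 with 50, chromosome 2 with 44 and chromosome 11 with 38. Chromosome 3 itself moved between libraries, as its median level was 0.864 and 0.866 at p0 and up to 1.09 in p20 Mulas2019 replicate 2. Its part in the count of chromosome 3 windows was not tested. Measured against the median of their own chromosome, all 86 windows of chromosome 3 but only 6 of the 38 on chromosome 11 stayed above 1.5. The median of chromosome 3 was below the autosomal one in most libraries, which raises its windows by this measure, so this is no check on their number. By the same measure 411 windows of chromosome 3, 300 of chromosome 16, 244 of chromosome 14 and 6 of chromosome 11 were above 1.5. The densest stretch by number was chr3:87710001-90650000, where 33 windows lay less than 1 Mb from the next, with a median GC content of 48.6%. The stretch chr4:146450001-148460000 held 21 windows of another kind, with a median GC content of 39.9%, 42.5% repeated words and levels up to 3.50.

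Of the 507 windows 400 (78.9%) overlapped a RefSeq gene, beside 59.5% of the mostly sequenced autosomal windows, and 440 genes were touched. Among 18 gene families counted by symbol, 13 had no gene in a high-count window, including the 1420 olfactory receptor genes and the histone, amylase, PRAME and alpha defensin families. Zinc finger genes named Zfp, which code for DNA-binding proteins, had 13 of 409 genes in these windows (3.18%, beside 0.935% of all genes), 7 of them in the stretch of chromosome 4. There, a run of 3 windows with Zfp982 reached 2.91 times the median and a run of 3 windows with Zfp981 and Zfp993 reached 2.70. Vomeronasal receptors, which detect pheromones, had 2 of 623 genes, both pseudogenes in the same stretch (Vmn2r-ps16 and Vmn2r-ps20). The UDP glucuronosyltransferases, which make compounds soluble by adding a sugar acid, had 10 of 22 genes, 9 of them overlapping transcripts of the Ugt1a locus that share the same DNA. The major urinary proteins had Mup5 alone, of 22 genes.

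The highest window, chr2:98660001-98670000, stood at 603 times the median. Its level was 486 and 449 at p0, 810 and 726 at p10 Mulas2019, 680 and 710 at p20 Mulas2019, 608 and 625 at p10 Keniry2022, and 556 and 457 at p20 Keniry2022. Both Mulas2019 groups and p10 Keniry2022 lay above p0 without overlap, and p20 Keniry2022 overlapped p0. It took 29.0% to 30.0% of the reads of all 507 windows at p0 and 43.3% to 45.3% at p10 Mulas2019.

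Other satellite windows of chromosomes 9 and 14 moved in the same direction. The window at chr9:35300001-35310000, inside Gm33838, was at 28.1 and 27.1 at p0, 48.0 and 39.8 at p10 Mulas2019, 39.2 and 41.5 at p20 Mulas2019, 35.9 and 38.1 at p10 Keniry2022, and 34.7 and 26.7 at p20 Keniry2022. The window at chr14:19410001-19420000, next to a gap and with no RefSeq gene, was at 10.9 and 9.62, then 18.9 and 16.4, 17.1 and 16.3, 14.1 and 15.1, and 13.8 and 10.3 in the same order of groups. In both windows the 4 Mulas2019 libraries were above the p0 libraries, and p20 Keniry2022 replicate 2 lay below or between the p0 libraries. The run chr9:3020001-3040000, which holds the microRNA gene Mir101c, reached 5.98 and 5.09 at p0 and 9.89 and 8.11 at p10 Mulas2019. The window chr9:3000001-3010000 beside the gap at the start of the assembled chromosome was at 3.98 and 3.18 at p0 and 5.86 and 5.34 at p10 Mulas2019. Not all 8 satellite windows shared this, as their log2FC at p10 Mulas2019 against p0 ran from -0.03 to 0.80, with 1 below 0. On chromosome 4, the window with the 21-base repeat was at 3.63 and 3.57 at p0 and 3.94 and 3.08 at p10 Mulas2019. It was between 3.25 and 4.24 in the other libraries.

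**Figure D1:**
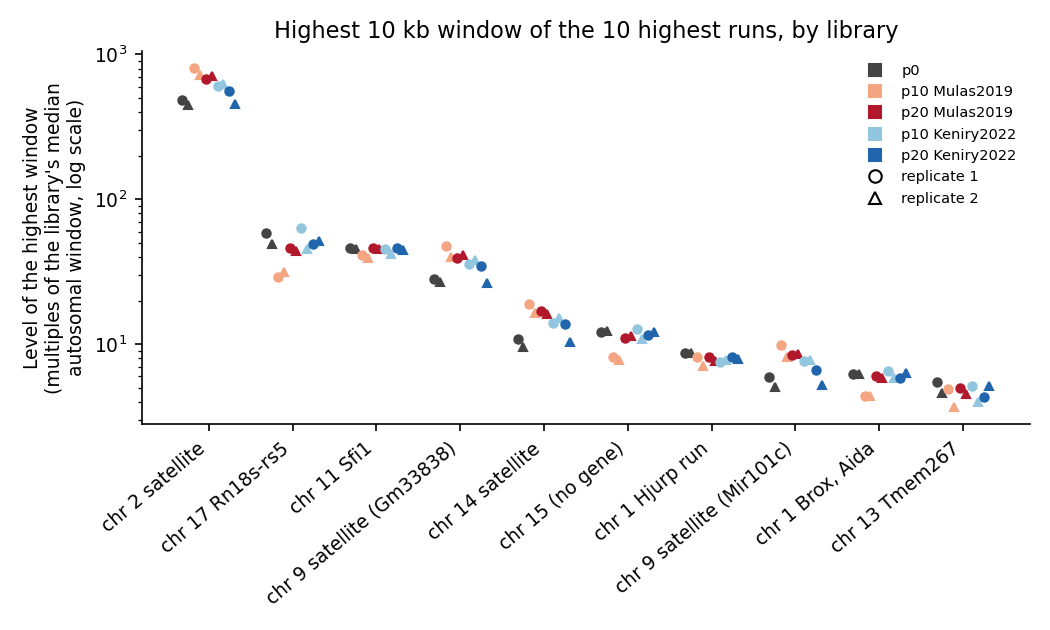
Level of the highest window in each of the 10 highest runs, as a multiple of the median autosomal window of the library, on a log scale. Each symbol is 1 library, coloured by group, with circles for replicate 1 and triangles for replicate 2. The chromosome 2 satellite window reaches 810 at p10 Mulas2019 and 449 at p0, while the Rn18s-rs5 window is lowest at p10 Mulas2019 (29.3 and 31.8).

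The ribosomal window moved the other way. The window chr17:39840001-39850000, which overlaps Rn18s-rs5 and the transcript AY036118, was at 58.4 and 49.0 at p0, 29.3 and 31.8 at p10 Mulas2019, 46.4 and 44.0 at p20 Mulas2019, 63.9 and 45.8 at p10 Keniry2022, and 49.0 and 51.8 at p20 Keniry2022. The p10 Mulas2019 libraries were lowest and did not overlap any other group. Its GC content was 53.8%, against 35.04% for the satellite unit.

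Among the other high runs, the pair of windows in Sfi1, a centrin-binding protein of the centrosome, held steadiest. The upper of them, chr11:3190001-3200000, was between 39.1 and 46.3 in all 10 libraries and the lower, chr11:3180001-3190000, between 23.2 and 27.3. No test called either window. The window chr15:75080001-75090000, with no RefSeq gene, was at 12.2 and 12.5 at p0, 8.11 and 7.80 at p10 Mulas2019, 10.99 and 11.3 at p20 Mulas2019, 12.8 and 10.9 at p10 Keniry2022, and 11.5 and 12.2 at p20 Keniry2022. The window chr1:183290001-183300000, at the genes Brox and Aida, was at 6.24 and 6.23 at p0 and 4.42 and 4.36 at p10 Mulas2019, and between 5.85 and 6.51 in the other 6 libraries. In both of these windows p10 Mulas2019 was the lowest group without overlap. The window of Tmem267, chr13:119610001-119620000, ranged from 3.67 to 5.52 and its groups overlapped.

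The longest run covered 11 windows, chr1:88210001-88320000. It holds the shared end of the Ugt1a genes, Mroh2a, Hjurp, the chaperone that loads the centromeric histone onto centromeres, and the start of Trpm8, a cold-sensing channel. The run rose at once from 1.34 in the window before it to 7.41, stayed between 5.35 and 7.87 over 10 windows, and ended at 1.67 followed by 1.31. Only 4.45% of its sampled words occurred elsewhere in the assembly, so most of this segment occurs once there. The mean level over the run was 6.91 and 6.85 at p0, 5.74 and 5.37 at p10 Mulas2019, 6.20 and 5.93 at p20 Mulas2019, 6.15 and 6.10 at p10 Keniry2022, and 6.83 and 6.71 at p20 Keniry2022. Every library showed the run at over 5 times the median, with p10 Mulas2019 lowest.

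**Figure D2:**
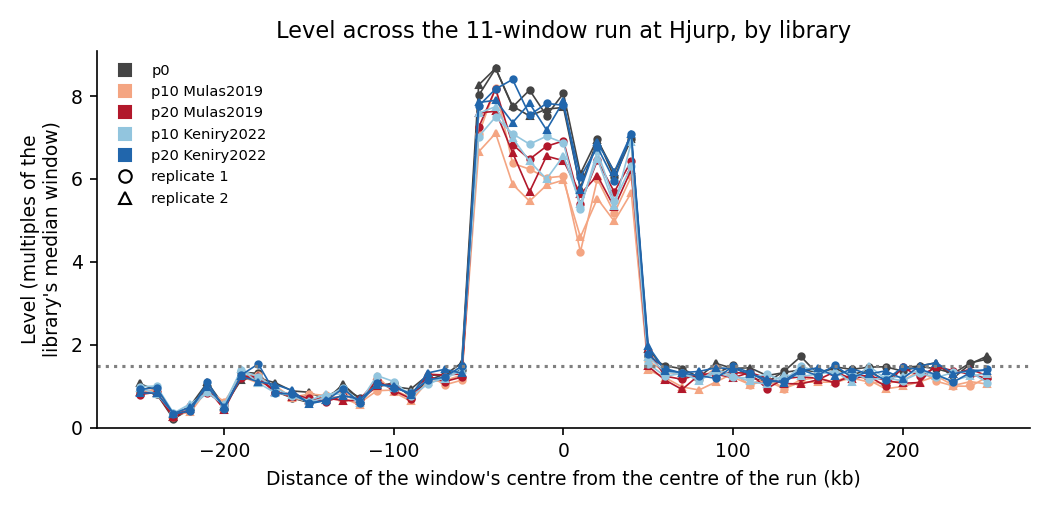
Level of 10 kb windows across the run at Hjurp on chromosome 1, against the distance of the window from the centre of the run in kb. Each line is 1 library, coloured by group, and the dotted line is the limit of 1.5 times the median. The level steps from 1.34 to 7.41 at the left end and from 6.48 to 1.67 at the right end in the mean over libraries, and all 10 libraries share the step.

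The next longest run, chr16:3230001-3280000, had 5 windows beside a gap, no gene, and mean levels from 1.77 to 2.42. There were 4 runs of 4 windows. Those at chr3:9690001-9730000, in Pag1, a membrane adaptor that binds the kinase Csk, and at chr3:106220001-106260000, with no gene, had mean levels of 1.34 to 1.92 and of 1.254 to 2.08. The run chr4:147400001-147440000 at Gm46898 was between 2.40 and 2.70, and chr13:12900001-12940000 at Gm40904 between 1.54 and 2.17. The Pag1 run had 0.750% repeated words and a GC content of 47.5%, while the other runs of 4 had 32.9% to 44.1% repeated words.

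How many windows passed the limit within a library differed widely. At p0, 19691 and 13897 autosomal windows were above 1.5 times the median of the library, but at p10 Mulas2019 only 480 and 241. The counts were 2772 and 3042 at p20 Mulas2019, 5972 and 2094 at p10 Keniry2022, and 12553 and 11434 at p20 Keniry2022. Of the 507 windows 74 passed in all 10 libraries and 110 in at most 5. The median level of the 507 windows was 1.73 and 1.69 at p0, 1.37 and 1.36 at p10 Mulas2019, 1.56 and 1.53 at p20 Mulas2019, 1.60 and 1.53 at p10 Keniry2022, and 1.72 and 1.69 at p20 Keniry2022.

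**Figure D3:**
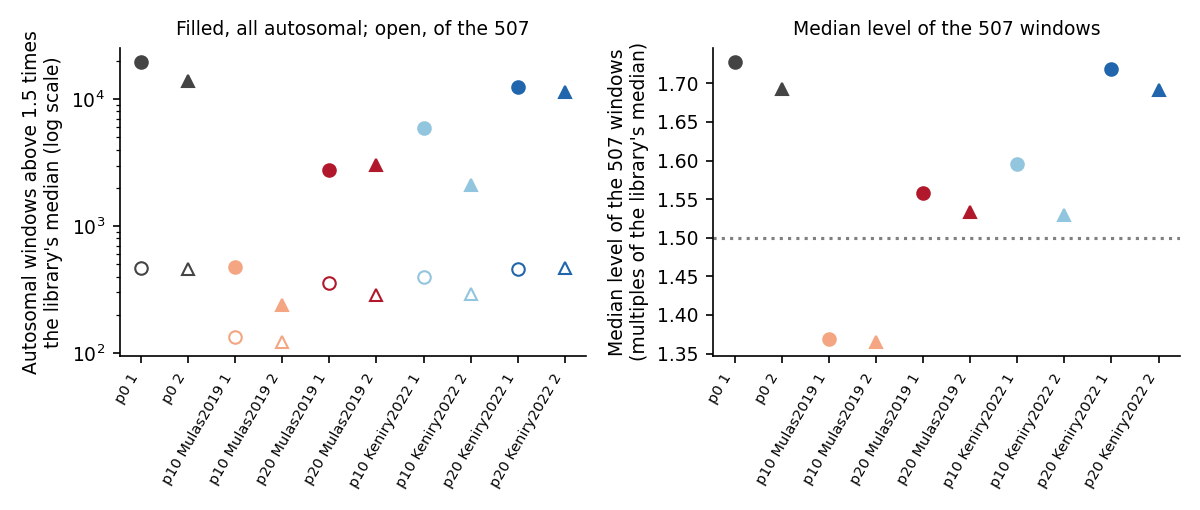
Left, number of autosomal windows above 1.5 times the median of the library on a log scale (filled symbols) and how many of these were among the 507 (open symbols). Right, median level of the 507 windows, with the limit of 1.5 as a dotted line. Circles are replicate 1 and triangles replicate 2. The p10 Mulas2019 libraries are lowest on both sides, with 480 and 241 windows and median levels of 1.37 and 1.36.

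The share of all reads that fell in the 507 windows was asked next, by protocol and passage. It was 0.664% and 0.641% at p0, 0.747% and 0.702% at p10 Mulas2019, 0.730% and 0.737% at p20 Mulas2019, 0.708% and 0.697% at p10 Keniry2022, and 0.694% and 0.643% at p20 Keniry2022. The widest 95% Wilson interval was 0.744% to 0.751%, at p10 Mulas2019 replicate 1, and these intervals cover counting error only. The 4 Mulas2019 libraries had 0.729% ± 0.0196 (SD, n = 4) and the 4 Keniry2022 libraries 0.686% ± 0.0288 (SD, n = 4). In each protocol these 4 libraries are 2 lines at 2 passages, so they are not 4 independent units. The permutation tests of shares here and below do not keep lines or passages together. The difference, Keniry2022 minus Mulas2019, was -0.0436 percentage points and did not pass a two-sided exact permutation test over libraries (p = 0.0571, where the smallest possible is 0.0286). All 4 pairs of the same line and passage were lower in Keniry2022, also with the p20 Keniry2022 numbers crossed, and the exact sign-flip test over them gave p = 0.125, the smallest it can give. Groups of 2 against p0 cannot pass such a test, so their shares are given as values.

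The sign of the difference depended on 1 window. The highest window alone had a share of 0.306% ± 0.0231 (SD, n = 4) for Mulas2019, where Keniry2022 libraries had 0.233% ± 0.0329 (SD, n = 4). Left without this window, the list gave the opposite order, 0.423% ± 0.0233 (SD, n = 4) for Mulas2019 against 0.452% ± 0.0123 (SD, n = 4) for Keniry2022, a difference that was not tested. Over the 50 windows above 2 times the median Mulas2019 libraries had a share of 0.446% ± 0.0216 (SD, n = 4), against 0.377% ± 0.0364 (SD, n = 4) for Keniry2022, and the exact permutation test gave p = 0.0286. The gap in the highest window is wider than this one, so the other windows above 2 times the median together had the lower share in Mulas2019. The exact sign-flip test over the 4 pairs, which come from 2 lines, keeps line and passage together and gave p = 0.125, the smallest it can give. Without the 10 highest windows the sign was also turned, with 0.340% ± 0.0178 (SD, n = 4) for Mulas2019 against 0.368% ± 0.0129 (SD, n = 4) for Keniry2022 and p = 0.0857 in the exact permutation test. The 8 satellite windows alone took 0.222% and 0.208% at p0, 0.377% and 0.337% at p10 Mulas2019, 0.317% and 0.332% at p20 Mulas2019, 0.282% and 0.293% at p10 Keniry2022, and 0.258% and 0.210% at p20 Keniry2022. The 457 windows from 1.5 to 2 times the median took 0.321% and 0.316% at p0 and 0.270% and 0.268% at p10 Mulas2019, and 0.293% to 0.321% in the other libraries. Both parts of the list thus moved in opposite directions, with the satellite share highest and the share of the lower windows lowest at p10 Mulas2019.

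**Figure D4:**
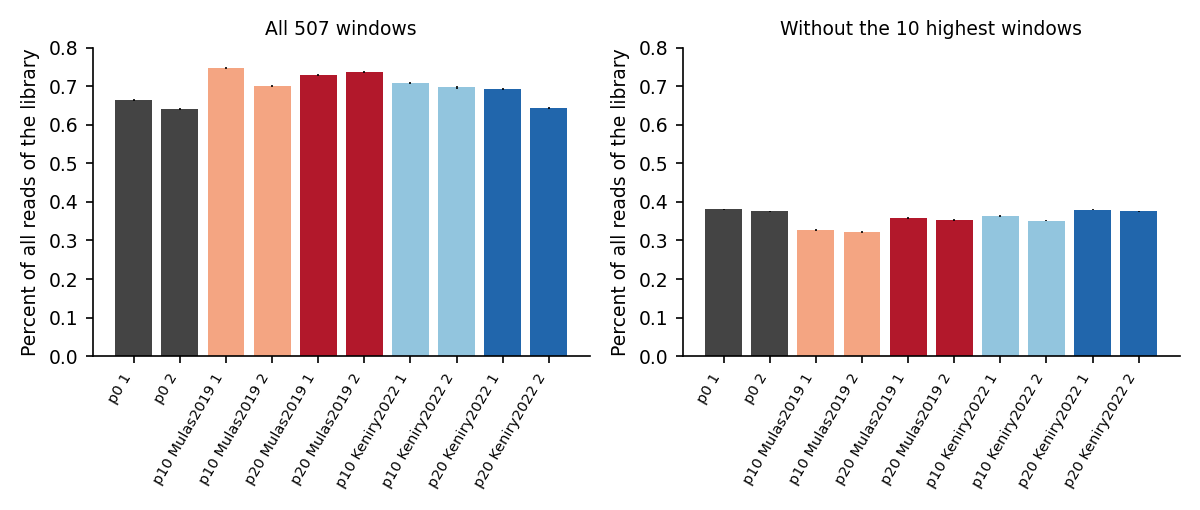
Percent of all reads of a library that fell in the 507 windows (left) and in the 497 windows left without the 10 highest (right). Bars are single libraries, coloured by group, and error bars are 95% Wilson intervals, which are narrow at this depth. On the left 3 of the 4 Mulas2019 bars are the highest (0.730% to 0.747%), and p10 Mulas2019 replicate 2 at 0.702% lies below p10 Keniry2022 replicate 1 at 0.708%. On the right the p10 Mulas2019 bars are the lowest (0.327% and 0.322%).

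Single windows were then compared between groups in 1 limma fit over 250550 windows, with a minimum fold change of 1.1 and adjusted p at 0.05. All 507 windows entered the fit. At p10 Mulas2019 against p0, 26 of the 507 rose (5.13%) and 112 fell (22.1%), beside 11.1% higher and 4.81% lower among all windows tested, with a median log2FC of -0.30 beside 0.03. The counts depended on each of the libraries compared, with 49 windows called without p0 replicate 1, 90 without p0 replicate 2, 91 without p10 Mulas2019 replicate 1 and 64 without p10 Mulas2019 replicate 2. Over all 250550 windows the same fits called 18455, 27247, 24433 and 19096, against 39893 with every library. In the mean of the 6 libraries outside this comparison 1237 autosomal windows were above the limit, 477 of them among the 507. Of these 477, 24 rose and 103 fell, but the 507 were chosen with the compared libraries included.

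The direction followed the GC content of the window. The windows that rose had 34.8% to 42.4% GC and those that fell 41.8% to 54.6%, and over the 507 windows log2FC had a Pearson correlation of -0.78 with GC content, given as a description since all windows share the same 4 libraries. At 46% GC and over, 102 of 364 windows fell (28.0%) with a median log2FC of -0.34, and among the other autosomal windows of that GC content 23.0% fell, with a median of -0.34. From 42% to 46% GC, 9 of 76 windows fell (11.8%) with a median of -0.22, beside 3.27% and -0.17 among the others. Under 42% GC, 25 of 67 windows rose (37.3%) with a median of 0.28, beside 20.0% and 0.27 among the others. After a GC correction of each library only 1 of the 507 windows was called, the Chl1 window described below, which entered the list through p10 Mulas2019 itself, and over all 250550 windows the calls went from 39893 to 4. The SD of log2FC over the 507 windows went from 0.290 to 0.155.

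**Figure D5:**
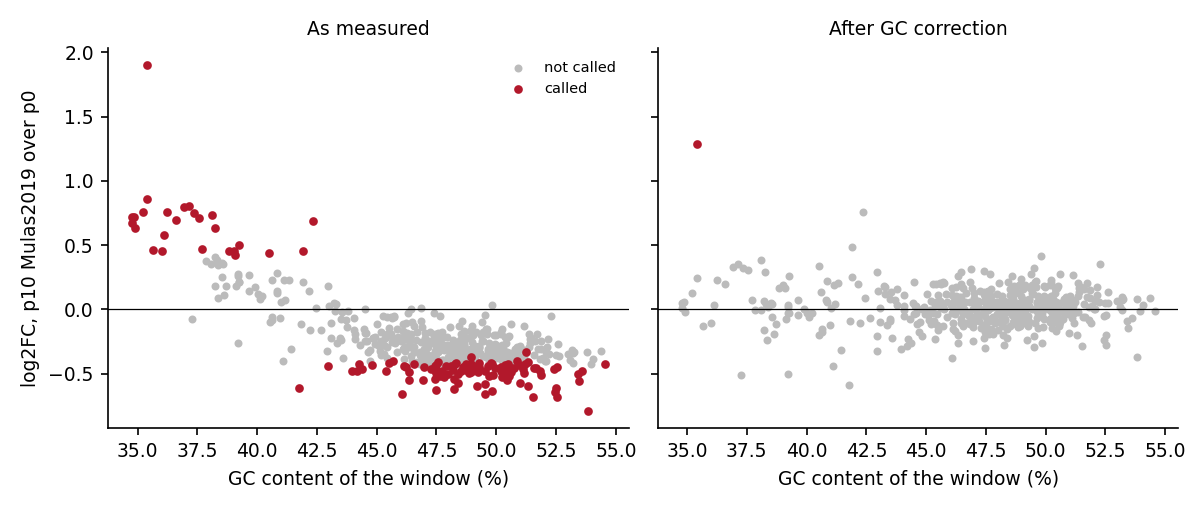
log2FC of p10 Mulas2019 over p0 for each of the 507 windows against its GC content in percent, as measured (left) and after the GC correction (right). Red points were called by limma at an adjusted p of 0.05 and grey points were not. As measured, 26 windows rose at low GC and 112 fell at high GC, and after the correction 1 window remained.

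Of the 8 satellite windows 7 rose at p10 Mulas2019. In the highest window log2FC was 0.74 ± 0.08 (SE), with a limma adjusted p of 6.03e-08. In chr14:19410001-19420000 it was 0.80 ± 0.08 (SE), with a limma adjusted p of 3.53e-09. After the GC correction, which uses the GC content of the whole window, these were 0.38 and 0.36, and the 3 windows at the start of chromosome 9 between 0.01 and 0.30. The window in Gm33838 had 0.69 before and 0.75 after the correction, and its GC content of 42.4% is above that of the satellite unit. None of the satellite windows was called after the correction. With the line as a fixed block 7 satellite windows rose, and 6 with the p20 Keniry2022 numbers crossed in that fit, where 27 of the 507 windows rose and 138 fell, beside 31249 higher and 15509 lower of all windows.

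The largest gain beside p0 was in chr6:103640001-103650000, inside Chl1, a neural cell adhesion molecule, with a log2FC of 1.90 ± 0.12 (SE). It held 183 and 125 reads at p0, 448 and 734 at p10 Mulas2019, 192 and 147 at p20 Mulas2019, 131 and 126 at p10 Keniry2022, and 124 and 145 at p20 Keniry2022. Only the p10 Mulas2019 libraries stood out, at 3.93 and 4.96 times the median beside 0.919 to 1.46 in the other libraries. The 4 windows around it were between 0.716 and 1.13 in these 2 libraries. This window passed the limit of 1.5 only through p10 Mulas2019, so the size of its gain is a description. After the GC correction log2FC was 1.29, also a description.

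The next largest gain that both lines shared was in chr3:106220001-106230000, with no gene, where log2FC was 0.86 ± 0.12 (SE) with a limma adjusted p of 1.41e-05, and 0.24 after the GC correction. Its level was 1.14 and 1.28 at p0 and 2.06 and 2.26 at p10 Mulas2019. The largest loss was in the Rn18s-rs5 window, with -0.79 ± 0.08 (SE, limma adjusted p = 2.66e-09). After the GC correction this loss was -0.37 and was not called. The chr15:75080001-75090000 window differed from it in that it had 41.8% GC and its log2FC was -0.61 before and -0.59 after the correction, where it was no longer called.

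At p20 Mulas2019 against p0 the 5 windows called were all satellite windows and all rose, beside 0.022% higher and 0.000399% lower among all windows. They were chr2:98660001-98670000 (log2FC 0.60 ± 0.08 SE), chr9:3000001-3010000 (0.65 ± 0.09 SE), chr9:3020001-3030000 (0.65 ± 0.08 SE), chr9:35300001-35310000 (0.57 ± 0.07 SE) and chr14:19410001-19420000 (0.73 ± 0.08 SE). All 5 were above the limit of 1.5 in the libraries outside the comparison. Without p20 Mulas2019 replicate 2 the count was 2 and without p0 replicate 2 it was 3, beside 2 and 145 of all 250550 windows in these fits, against 56 with every library. With the line as a fixed block 6 windows rose, beside 193 higher and 2 lower of all windows. The added one was chr3:106150001-106160000 at Chil3, a chitinase-like protein, which holds no satellite match and was at 1.26 and 1.53 at p0 and 1.93 and 2.11 at p20 Mulas2019. With the p20 Keniry2022 numbers crossed in that fit 5 windows rose, beside 200 higher and 5 lower of all windows, with the Chil3 window among them and the highest window of chromosome 2 no longer called. With crossed numbers and a random block the 5 satellite windows were called. None was called after the GC correction, beside 0 of all windows, where the 8 satellite windows had log2FC values of 0.10 to 0.61.

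In Keniry2022 conditions no high-count window was called against p0 at p10 or p20, where 0 of all 250550 windows passed in either direction. At an unadjusted p of 0.05 there were 22 at p10 and 6 at p20, beside 11486 and 4449 of the 250550 windows, and voom on the recovered reads also called 0. All 8 satellite windows were higher than p0 in the mean of both lines, by 0.07 to 0.53 on the log2 scale at p10 and 0.07 to 0.22 at p20. Corrected for GC content, their log2FC values were 0.16 to 0.48 at p10 and -0.07 to 0.25 at p20, so at p20 not all of them stayed above 0. With the line as a fixed block 4 windows were called higher at p10, all of them satellite windows, beside 0.00758% of all windows, and 0 at p20. With the p20 Keniry2022 numbers crossed in that fit, 2 satellite windows were called higher at p10, beside 14 higher and 1 lower of all windows, and 0 at p20. Without p10 Mulas2019 replicate 2, p20 Keniry2022 replicate 1 or p20 Keniry2022 replicate 2, none of which is in this comparison, 1 window was called at p10, beside 1 of all windows in each of these fits.

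Keniry2022 was then compared with Mulas2019 at the same passage. These groups also differ in days of culture, so protocol and time cannot be told apart here. At p10, 4 windows were higher in Keniry2022 and 1 was lower, beside 0.00798% higher and 0.0192% lower among all windows. The higher ones were the Rn18s-rs5 window (log2FC 0.82 ± 0.08 SE, limma adjusted p = 3.29e-10), chr11:109010001-109020000 in Gm36876 (0.63 ± 0.10 SE, limma adjusted p = 0.0147), chr15:75080001-75090000 (0.57 ± 0.07 SE, limma adjusted p = 0.000905) and chr1:183290001-183300000 at Brox and Aida (0.49 ± 0.08 SE, limma adjusted p = 0.0467). The Gm36876 window was at 1.87 and 1.93 at p10 Mulas2019 and at 3.22 and 2.69 at p10 Keniry2022, beside 3.11 and 2.98 at p0. The lower window was the Chl1 window (log2FC -2.20 ± 0.12 SE), a description since its p10 Mulas2019 level put it on the list. Of the 497 windows above the limit in the 6 libraries outside this comparison, 4 were higher and 0 lower. In the 4 higher windows the p10 Keniry2022 libraries were nearer to p0 than the p10 Mulas2019 libraries were. After the GC correction the first 4 had log2FC values of 0.56, 0.46, 0.56 and 0.34 and were not called, and the Chl1 window had -1.82.

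These p10 calls changed with the libraries used. Without p10 Mulas2019 replicate 1 or replicate 2 there were 3 calls, without p10 Keniry2022 replicate 1 there were 2, and without p10 Keniry2022 replicate 2 there were 8. Over all 250550 windows these fits called 16, 25, 4 and 563, against 68 with every library. With the line as a fixed block 7 windows were higher and 2 lower, the highest window of chromosome 2 among the lower ones, beside 0.0515% higher and 0.145% lower among all windows. With the p20 Keniry2022 numbers crossed the fixed block also gave 7 higher and 2 lower, with no satellite window among them, beside 186 higher and 427 lower of all windows. The random block with crossed numbers gave 3 higher and 1 lower, the Brox and Aida window being lost, beside 14 higher and 31 lower of all windows. With the line as a random block no satellite window was called at p10, where 7 of the 8 had a negative log2FC, the lowest of them -0.39.

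At p20 no high-count window differed between the protocols by limma, nor did any of the 250550 windows (0 higher and 0 lower), with 39 of the 507 under an unadjusted p of 0.05, beside 6929 of all windows, and 0 calls by voom. The 4 lowest values were satellite windows, with -0.58 ± 0.09 (SE, limma adjusted p = 0.221) at chr9:3000001-3010000 and -0.49 ± 0.08 (SE, limma adjusted p = 0.356) at the highest window. With the line as a fixed block 5 satellite windows were called lower in Keniry2022 at p20, beside 0.00239% of all windows, and with no block 4 were, beside 0.0016%. With the p20 Keniry2022 numbers crossed the fixed block called only 2 of them, both at the start of chromosome 9, beside 2 of all windows. Leaving out p20 Keniry2022 replicate 1 also gave 5 calls, p10 Mulas2019 replicate 2 gave 4, p10 Keniry2022 replicate 2 gave 3 and p10 Keniry2022 replicate 1 gave 1, all of them lower. In these fits the counts over all 250550 windows were 5, 4, 3 and 1. After the GC correction the satellite values were -0.45 to 0.16 with a median of -0.39 and none was called. So at p20, 7 of the 8 satellite windows had a lower mean in Keniry2022 than in Mulas2019, but the call depended on how the line was modelled and on the replicate numbers.

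No high-count window was called between the lines. Among all windows 0.0487% were higher in replicate 2 and 0 lower, and among the 507 windows 0 were called and 0 had an unadjusted p under 0.05 by limma or voom. With a share this low among all windows, 0 calls among 507 do not set them apart. Without the p20 Keniry2022 libraries, and with their numbers crossed, 0 were called and 1 had an unadjusted p under 0.05, beside 199 higher and 5 lower, and 200 higher and 8 lower, of all windows. The calls over all windows were not stable, as they fell to 0 after the GC correction and with the filter on low windows at 0.5 of the median. They also fell to 0 when any single library outside p20 Keniry2022 was left out.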

How the data were processed

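Low-coverage DNA sequencing was available for 10 libraries of mESCs, and titles gave the groups and replicates. Per the labels, bcl2fastq made the read files and Bowtie2 aligned them to mm10, without stated versions. The authors deposited log2 values for 272566 windows of 10 kb, each the log2 of whole reads scaled up to the largest library total, with 0.9 reads for an empty window. Whole reads were recovered for 100% of the deposited log2 values at a tolerance of 0.1 reads. The treatment of reads that map to several places, not given in the sources used here, sets the level of every repeat. The methods describe bins of 1 Mb without blacklisted regions, but no window had been removed from the table. The mitochondrial windows held 0 reads.

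Values were scaled to log2 CPM. Windows at 0.1 of the median or more entered limma 3.58.1 (statmod 1.5.0, R 4.3.3) with a trended prior, 5 group coefficients and the line as a random block (duplicateCorrelation on every 20th window, consensus correlation -0.05). Calls needed a Benjamini-Hochberg adjusted p under 0.05 in TREAT, against a 1.1-fold minimum. The lines were compared with the line as a fixed effect. The block comes from the design, since each line was split into both conditions. Over the 507 windows the differences between replicates 1 and 2, after the GC correction, correlated between groups at -0.06 to 0.08 without p20 Keniry2022 and at -0.13 to 0.01 with it. Replicates of a group differed by more than counting error, with a chi-square per window of 1.10 to 1.18.

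GC content, 31-base words (sampled every 50 bases) and 20-base satellite matches came from the GRCm38 sequence of RefSeq, genes from RefSeq (GRCm38.p6) and exons from GENCODE. The GC correction fitted loess (span 0.3) to log2 CPM against GC content in each library and took the fit away. Shares were compared with exact permutation tests (scipy 1.17.1). Named windows were the 10 highest runs, the longest runs, and for each test the 2 largest called changes in each direction that both lines shared. A window that this rule names is not reported here. The windows, lists and rules were chosen with earlier results of these data known. Python 3.11.15 was used with numpy 2.4.6, pandas 2.3.3 and statsmodels 0.14.6.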

Additional observations from a re-analysis of the deposited data

Results flagged for a closer look

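Both protocols were set against the same p0 libraries, and limma called 5 high-count windows between their p10 groups, beside 68 of all 250550 windows. Of the 5, 4 were above the limit without the libraries compared. The Rn18s-rs5 window on chromosome 17 was higher in Keniry2022 by 0.82 on the log2 scale, chr11:109010001-109020000 by 0.63, chr15:75080001-75090000 by 0.57 and chr1:183290001-183300000 by 0.49. The Chl1 window, chr6:103640001-103650000, had a log2FC of -2.20, and it was on the list only through p10 Mulas2019. The 4 higher windows were not called after the GC correction, and the Chl1 window was.

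Outside the autosomes, 1 window of the X chromosome and none of the Y chromosome stood above 1.5 times the median autosomal window. This window, chrX:143480001-143490000, overlaps no RefSeq gene and had a mean level of 3.84. It was at 3.18 and 1.92 at p0, 9.88 and 12.7 at p10 Mulas2019, 2.05 and 2.20 at p20 Mulas2019, 1.54 and 1.54 at p10 Keniry2022, and 1.44 and 2.29 at p20 Keniry2022. Like the Chl1 window it stood out in both p10 Mulas2019 libraries, while its neighbours reached at most 0.527 there. It is not among the 507 windows counted above, though it was among the 250550 windows of the fit, and the cause was not tested.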

How the results depend on the processing

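The windows called at p10 Mulas2019 against p0 numbered 138, and 334 with no minimum change, 1 with the minimum of 1.1 set on the log2 scale, 1 after the GC correction with a random or a fixed replicate block, 86 with no filter on low windows and 23 among the 50 windows above 2 times the median. For p20 Mulas2019 against p0 these counts were 5, then 21, 0, 0 and 0, and 0 with no filter. For p10 Keniry2022 against p0 there were 0, and 5 with no minimum change, 2 with no replicate block and 4 with a fixed replicate block. At p10 the protocols differed at 5 windows, and at 73 with no minimum change, 1 with the log2 minimum of 1.1, after either GC correction or with no filter, 8 with no replicate block and 9 with a fixed replicate block. At p20 they differed at 0, and at 5 with no minimum change, 4 with no replicate block and 5 with a fixed replicate block. Above 2 times the median fewer windows were counted (50, not 507) in the same fit, and for the other changes the cause was not tested. Over all 250550 windows tested p10 Mulas2019 had 39893 calls, and 90694 with no minimum change, 2 with the log2 minimum, 4 and 5 after the GC corrections and 24757 of 272564 with no filter. For p20 Mulas2019 these were 56, 3759, 0, 0, 0 and 9, and between protocols at p10 they were 68, 14447, 2, 2, 2 and 4, with 423 for no block and 493 for a fixed block. For p10 Keniry2022 all windows gave 0, 111 with no minimum change, 14 with no block and 20 with a fixed block, and between protocols at p20 they gave 0, 7, 4 and 6. Leaving out each library in turn gave 49 to 144 calls for p10 Mulas2019, 2 to 5 for p20 Mulas2019, 0 to 1 for p10 Keniry2022, 0 to 0 for p20 Keniry2022, 2 to 8 between protocols at p10, 0 to 5 at p20 and 0 to 0 between lines. The share difference was -0.0687 percentage points for windows above 2 times the median and 0.0276 without the 10 highest windows, and -0.0528 to -0.0295 without each library. The replicate block changed no other count among the 507 windows by more than 1.5 times, but over all windows p20 Mulas2019 had 164 calls with no block and 195 with a fixed block. Differences between replicates correlated at -0.13 and -0.10 between p20 Keniry2022 and the p20 Mulas2019 and p10 Keniry2022 groups, and crossing its numbers gave 4 calls between protocols at p10 and 137 for p10 Mulas2019, beside 45 and 39500 of all windows. A fixed replicate block with crossed numbers gave 2 calls for p10 Keniry2022, 9 between protocols at p10 and 2 at p20, 165 for p10 Mulas2019 and 5 for p20 Mulas2019, beside 15, 613, 2, 46758 and 205 of all windows. This setting, and the count of those of the 507 windows above the limit in the 6 libraries outside each comparison, were chosen after seeing the data. At a median of 114 to 148 reads, windows near the limit of 1.5 carry a counting error of several percent in each library.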
